A study of Mus musculus with 18 samples.

Results

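Genes that move iron into, through and out of cells were followed during the differentiation of mouse neural stem cells into astrocytes, with and without the inflammatory cytokine TNF. The set held 10 of the 54838 genes in the count table: *Scara5*, *Tfrc*, *Trf*, *Steap3*, *Slc11a2*, *Slc39a14*, *Fth1*, *Ftl1*, *Slc40a1* and *Hfe*. They were picked by name for their place in iron handling with earlier results of these data known, and *Scara5* was in addition singled out for its large fall under TNF. The values of *Scara5* in every comparison that uses a library from the TNF contrasts are therefore given as a description, with no test, and counts of called genes cover the other 9.

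The cells were primary neural stem cells, each culture taken from the ventricular zone of a single C57BL/6J mouse brain at embryonic day 14. Neurospheres (NSPs) were kept proliferating in medium with B27 supplement lacking vitamin A and with 20 ng/mL EGF. In the other 5 conditions that medium was replaced by DMEM with 10% fetal bovine serum, for 24 h or 72 h without TNF, for 24 h or 72 h with 50 ng/mL TNF, or for 1 week without TNF. Each of the 6 conditions had 3 libraries of ribosome-depleted, strand-specific total RNA, and all 18 came from wild-type cells. Every comparison of a differentiated condition with NSPs therefore changes medium, serum, growth factor and attachment together, which cannot be told apart.

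Library totals ranged from 12509693 to 22549627 counts (median 16794798), and all 10 genes passed the filter on low counts that left 20067 genes for testing. Of 8 astrocyte markers, all were at 1 CPM (read counts scaled to the library's size) or more on average in each condition, NSPs included, while 7 of 8 microglia and macrophage markers were under 1 CPM throughout and their summed level lay between 1.15 and 3.88 CPM. The share of counts on mitochondrial genes was 6.24% in replicate 1 of 24 h with TNF and 8.01% in replicate 1 of 72 h with TNF, against 1.6% to 5.02% in the other 16 libraries. Both libraries stood apart for several iron genes. TNF values of the other 9 genes and of the partners named below are therefore also given without them. That choice was made after seeing the data. Leaving out libraries that stand apart can also lower the estimated spread. The adjusted p of these fits are therefore a description and no firmer support. In bulk RNA, fewer cells of a type and less RNA per cell cannot be told apart. RNA quality numbers ran from 3.4 to 10 over the series and were not tied to single libraries.

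Most cells take up iron bound to transferrin (*Trf*), which the transferrin receptor (*Tfrc*) carries into endosomes. There the reductase STEAP3 converts ferric to ferrous iron, and DMT1 (*Slc11a2*) or ZIP14 (*Slc39a14*) moves it into the cytosol. SCARA5 is a scavenger receptor that binds ferritin. Iron is stored inside ferritin shells built from heavy (*Fth1*) and light (*Ftl1*) chains, of which the heavy chain oxidises iron, and leaves the cell through ferroportin (*Slc40a1*), the iron exporter. HFE is a membrane protein that binds the transferrin receptor and takes part in sensing iron. Astrocytes, whose endfeet cover brain capillaries, are placed between the blood and the iron-demanding neurons and oligodendrocytes.

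The mRNAs of *Fth1*, *Ftl1*, *Slc40a1* and *Tfrc* carry iron-responsive elements, hairpins that the iron regulatory proteins bind when iron is scarce. In the 5′ UTR the bound hairpin blocks translation, and in the 3′ UTR of *Tfrc* it protects the message from decay, so that the messenger levels given here report on the second kind of control but not on the first. The elements are shown because they mark the messages that hold the canonical form. A 3′ element known in *Slc11a2* departs from that form and was not searched for. Each was found in the GENCODE transcripts (GRCm38) as an unpaired C, 5 bases, the loop CAGTGN and 5 bases that pair with the first 5, read on the transcript strand. Capitals mark the 6-base loop.
*Fth1* 5′ UTR, chr19:9982732-9982760, plus strand: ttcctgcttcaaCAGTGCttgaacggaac
*Ftl1* 5′ UTR, chr7:45459779-45459807, minus strand: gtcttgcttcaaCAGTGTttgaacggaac
*Slc40a1* 5′ UTR, chr1:45925465-45925493, minus strand: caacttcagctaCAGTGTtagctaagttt
*Tfrc* 3′ UTR, chr16:32631219-32631247, plus strand: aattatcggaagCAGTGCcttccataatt
*Tfrc* 3′ UTR, chr16:32631598-32631626, plus strand: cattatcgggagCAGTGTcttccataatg
*Tfrc* 3′ UTR, chr16:32631663-32631691, plus strand: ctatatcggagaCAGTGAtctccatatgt
*Tfrc* 3′ UTR, chr16:32631710-32631738, plus strand: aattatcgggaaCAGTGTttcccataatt

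Of 21767 protein-coding genes searched, 28 (0.129%) held such a match in a 5′ UTR and 127 (0.583%) in a 3′ UTR. *Fth1*, *Ftl1* and *Slc40a1* were the 3 members with a 5′ match and *Tfrc* the 1 with a 3′ match. A match is a description of the letters, and the other 6 genes lack these letters in their annotated UTRs.

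Leaving the neurosphere state changed iron genes of uptake, storage and export. The receptor *Tfrc* and its ligand *Trf* fell, whereas the exporter *Slc40a1*, the ferritin heavy chain *Fth1* and *Hfe* rose, at all 3 times of untreated culture. Of the 9 genes tested, 5 were called at 24 h (3 higher, 2 lower), at an adjusted p under 0.05 in edgeR's quasi-likelihood test, where 52.7% of all genes tested were called (27.2% higher, 25.5% lower). At 72 h 7 of the 9 were called (5 higher, 2 lower), against 55.3% of all genes (28.1% higher, 27.2% lower), and at 1 week 5 (3 higher, 2 lower), against 58.6% (29.6% higher, 29.1% lower). The counts at 24 h and at 1 week were near the background. The 3 comparisons share the NSP libraries.

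**Figure D1:**
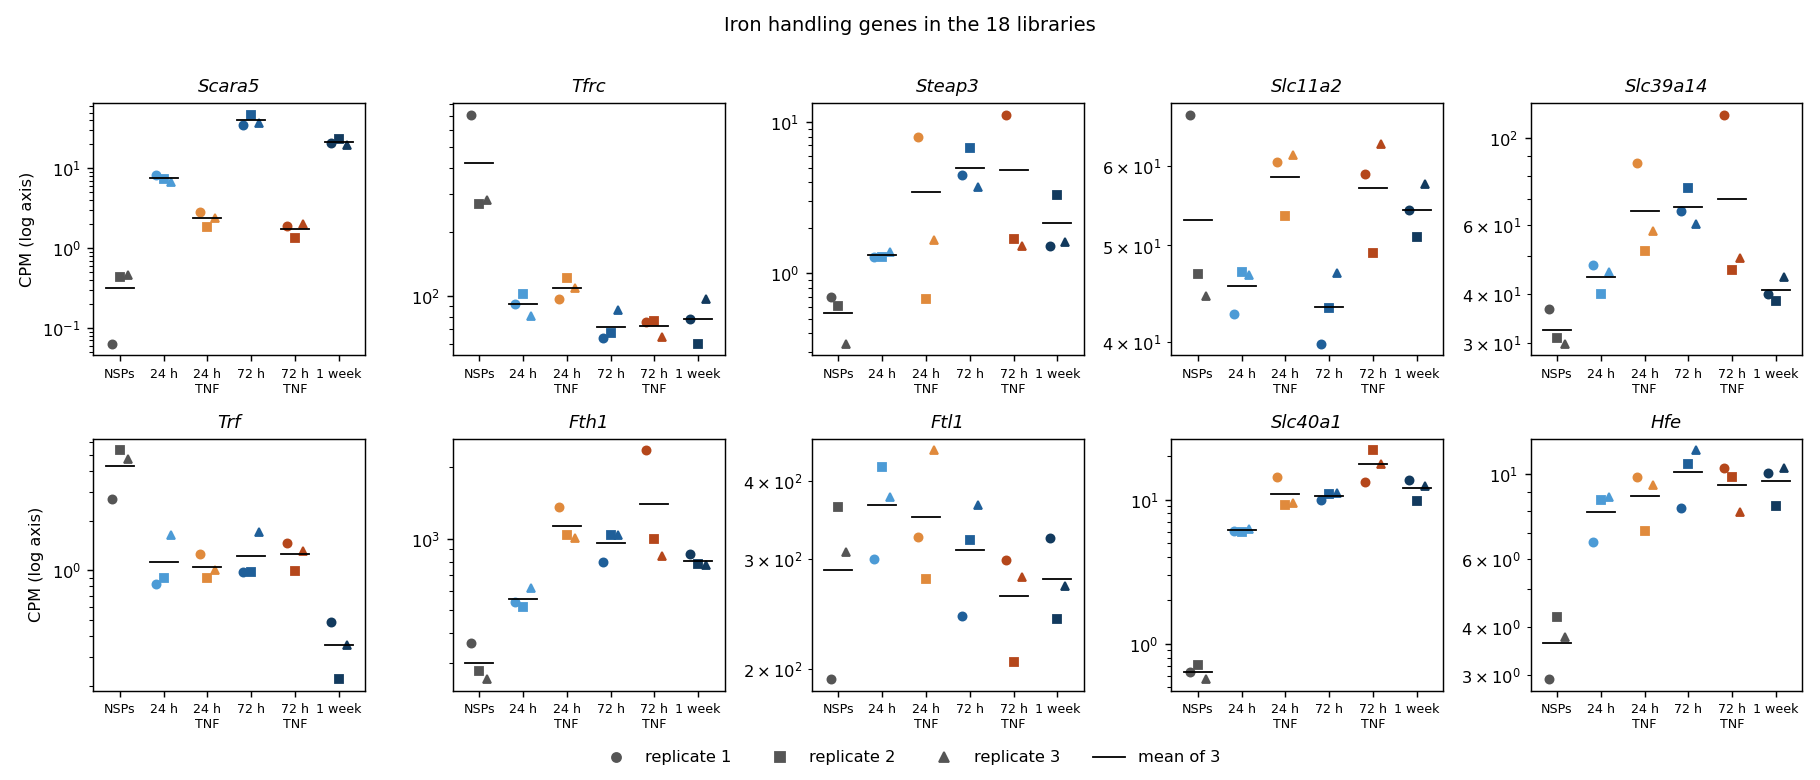
Level of the 10 iron handling genes in each of the 18 libraries, in CPM on a log axis. Symbols give the replicate, colours the condition and lines the mean of 3. *Slc40a1* in NSPs lay under 0.72 CPM and in every other library above 5.9 CPM, and the replicate 1 libraries with TNF stood high for *Steap3*, *Slc39a14* and *Fth1*.

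The transferrin receptor gene *Tfrc* (chromosome 16, 32608920 to 32632794, plus strand) was measured at 710, 270 and 283 CPM in the 3 NSP libraries. It was at 92.3, 103 and 80.7 CPM after 24 h, at 63.5, 66.9 and 85.8 CPM after 72 h, and at 77.8, 59.9 and 96.6 CPM after 1 week. All NSP libraries lay above all differentiated ones, and replicate 1 of the NSPs stood far above the other two. The mean level was 4.58-fold lower at 24 h than in NSPs (log2 fold change −2.19 ± 0.28 SE, adjusted p = 4.35e-06, edgeR, 3 against 3 libraries), 5.83-fold lower at 72 h and 5.39-fold lower at 1 week. Without NSP replicate 1 the log2 fold changes were −1.59, −1.94 and −1.83, all still called. *Tfrc* did not pass the test from 24 h to 72 h or from 72 h to 1 week. The neural stem cell list, which includes the proliferation marker *Mki67*, had 8 of 8 genes detected. Its summed levels were 5127 to 6535 CPM in NSPs, 2578 to 2965 CPM at 24 h and 1710 to 2258 CPM at 72 h. At 24 h 6 of the 8 were lower than in NSPs and 1 higher. From 24 h to 72 h, where *Tfrc* was not called, 5 were lower and 1 higher (median log2 fold change −1.10). The part of this list in the fall of *Tfrc* was not tested. The 3 genes whose log2 CPM ran most like *Tfrc* over the 18 libraries were *Taf1d* (r = 0.986), *Psmd14* (r = 0.984) and *Snrpd1* (r = 0.984), with the NSP libraries apart from the rest in each.

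*Trf*, which encodes transferrin, was a low gene in these cultures, with 464 counts over all 18 libraries. It was at 2.73, 5.38 and 4.72 CPM in NSPs and at 0.831, 0.895 and 1.63 CPM at 24 h, with no overlap. At 72 h the libraries held 0.984, 0.982 and 1.71 CPM, and at 1 week 0.486, 0.219 and 0.352 CPM. *Trf* was 3.88-fold lower at 24 h than in NSPs (log2 fold change −1.96 ± 0.34 SE, adjusted p = 0.000111, edgeR), 3.45-fold lower at 72 h and 11.7-fold lower at 1 week. Transferrin is made by oligodendrocytes in the brain. The myelin and lineage markers *Mbp*, *Mag*, *Mog* and *Sox10* averaged under 1 CPM in every condition (*Sox10* reached 1.15 CPM in 1 NSP library), and the summed level of the 8 genes of that list stood at 521 to 551 CPM in NSPs, at 214 to 226 CPM at 24 h, at 391 to 528 CPM at 72 h and at 236 to 291 CPM at 1 week. At 72 h *Cnp* alone made up 362 to 499 CPM of that sum. Of the 6 genes of the list that were tested, 3 were lower than in NSPs and 0 higher at 24 h (median log2 fold change −0.67), 4 lower and 1 higher at 72 h (−1.98) and 5 lower and 1 higher at 1 week (−2.13). Their part in the level of *Trf* was not tested.

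The endosomal iron reductase gene *Steap3* was at 0.698, 0.604 and 0.341 CPM in NSPs and at 4.47, 6.75 and 3.74 CPM at 72 h, a 9.04-fold difference (log2 fold change 3.18 ± 0.84 SE, adjusted p = 0.00348, edgeR). At 24 h it stood at 1.28, 1.29 and 1.39 CPM (log2 fold change 1.26, adjusted p = 0.264) and at 1 week at 1.502, 3.29 and 1.62 CPM (1.96, adjusted p = 0.0608), all above the NSP libraries but past the threshold at neither time. Fitted on the compared groups alone, both differences were called, with adjusted p = 0.0105 at 24 h and 0.00393 at 1 week. Both were also called with no filter on low counts (0.0101 and 1.22e-06), and that at 1 week with DESeq2 (0.0463) and with the replicate block (0.031).

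The ferrous iron transporters were called in 1 of these 3 comparisons for *Slc39a14* and in none (0 of 3, 0 at an unadjusted p under 0.05) for *Slc11a2*. *Slc39a14*, encoding ZIP14, was at 36.6, 30.9 and 29.9 CPM in NSPs, at 47.5, 40.0 and 45.6 CPM at 24 h, at 65.3, 74.7 and 60.2 CPM at 72 h and at 40.1, 38.5 and 44.3 CPM at 1 week. Every differentiated library lay above the NSPs, and only the 72 h difference was called (2.05-fold, log2 fold change 1.04 ± 0.26 SE, adjusted p = 0.00233, edgeR; at 24 h 0.45, adjusted p = 0.155). The 24 h difference was called on the compared groups alone (0.48, adjusted p = 0.0139) and with no filter on low counts (0.41, adjusted p = 0.0462). *Slc11a2*, encoding DMT1, was at 67.6, 46.8 and 44.5 CPM in NSPs and between 39.9 and 57.6 CPM in the 9 untreated differentiated libraries. Its log2 fold changes against NSPs were −0.22 at 24 h (adjusted p = 0.213) and −0.29 at 72 h (adjusted p = 0.1), the latter called without NSP replicate 3 (−0.40, adjusted p = 0.0371). The difference between the transporters was not tested. Genes on the opposite strand overlap exons of *Slc11a2* and *Ftl1*, with 126 counts (*Gm5475*) and 120 counts (*Gm10252*) over all libraries against 15370 and 91579, and reads of such a pair may not have been told apart, since the strand setting of the counting is not given in the sources used here.

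*Hfe*, the iron-sensing partner of the transferrin receptor, was at 2.92, 4.23 and 3.75 CPM in NSPs and at 6.65, 8.55 and 8.72 CPM at 24 h. At 72 h its libraries held 8.17, 10.6 and 11.6 CPM and at 1 week 10.1, 8.28 and 10.4 CPM. The level was 2.19-fold, 2.78-fold and 2.62-fold higher than in NSPs at the 3 times (log2 fold change at 24 h 1.13 ± 0.21 SE, adjusted p = 0.0002, edgeR), with no overlap between NSP and other libraries. Between NSPs and 24 h, 61.5% of all genes had groups that did not overlap, between NSPs and 72 h 59.8%, and between NSPs and 1 week 64.6%. *Hfe* ran most like *Slc40a1* among the pairs of the 10 genes (r = 0.924 over 18 libraries), and both were low in NSPs.

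*Slc40a1*, the only known iron exporter gene of mammals, was under 1 CPM in NSPs, at 0.635, 0.714 and 0.569 CPM. It stood at 6.05, 5.98 and 6.27 CPM at 24 h, at 9.91, 10.9 and 11.2 CPM at 72 h and at 13.7, 9.76 and 12.5 CPM at 1 week. The mean was 9.43-fold higher at 24 h than in NSPs (log2 fold change 3.24 ± 0.27 SE, adjusted p = 2.54e-08, edgeR), 16.5-fold higher at 72 h and 18.5-fold higher at 1 week. It also rose from 24 h to 72 h (1.75-fold, log2 fold change 0.80 ± 0.21 SE, adjusted p = 0.00827). That call was lost with a replicate block in which 72 h replicate 3 was left unpaired (0.75, adjusted p = 0.0587). Groups did not overlap, as in 41.3% of all genes. In that step 2 of the 9 genes were called, both higher, against 24.8% of all genes tested (12.2% higher, 12.6% lower). The genes most like *Slc40a1* over the 18 libraries were *Dlc1* (r = 0.985), the death receptor gene *Fas* (r = 0.984) and *Akr1c14* (r = 0.983).

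The second gene of that step was *Fth1*. Its libraries held 363, 276 and 256 CPM in NSPs, 542, 514 and 619 CPM at 24 h, 794, 1031 and 1036 CPM at 72 h and 859, 783 and 773 CPM at 1 week, with no overlap between NSPs and any later group. *Fth1* was 1.87-fold higher at 24 h than in NSPs (log2 fold change 0.90 ± 0.27 SE, adjusted p = 0.00919, edgeR), 3.20-fold at 72 h and 2.70-fold at 1 week, and it rose 1.71-fold from 24 h to 72 h (0.77 ± 0.27 SE, adjusted p = 0.0427). That last call was lost when any 1 of the 24 h libraries, or 72 h replicate 2 or 3, was left out, with adjusted p between 0.0643 and 0.121. *Ftl1*, the light chain, had overlapping groups, at 192, 362 and 308 CPM in NSPs, 299, 421 and 377 CPM at 24 h, 242, 322 and 365 CPM at 72 h and 323, 240 and 271 CPM at 1 week. It was called in no comparison, with log2 fold changes against NSPs of 0.35 at 24 h (adjusted p = 0.209) and 0.11 at 72 h (adjusted p = 0.71).

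The balance of the chains can be read within each library, where scaling cancels. The ratio of *Fth1* to *Ftl1* counts was 1.89, 0.763 and 0.832 in NSPs, 1.81, 1.22 and 1.64 at 24 h, 3.28, 3.21 and 2.84 at 72 h and 2.66, 3.26 and 2.85 at 1 week. NSP and 24 h libraries overlapped, and every 72 h and 1 week library lay above both. The principal transcripts in GENCODE are 929 and 1494 bases long for *Fth1* and 968 bases for *Ftl1*, so that the ratio is one of counts and not of molecules. Processed copies of ferritin genes are a known source of misplaced reads; the largest, *Fth-ps2* and *Ftl1-ps1*, had 548 and 173 counts over all libraries against 254946 for *Fth1* and 91579 for *Ftl1*.

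**Figure D2:**
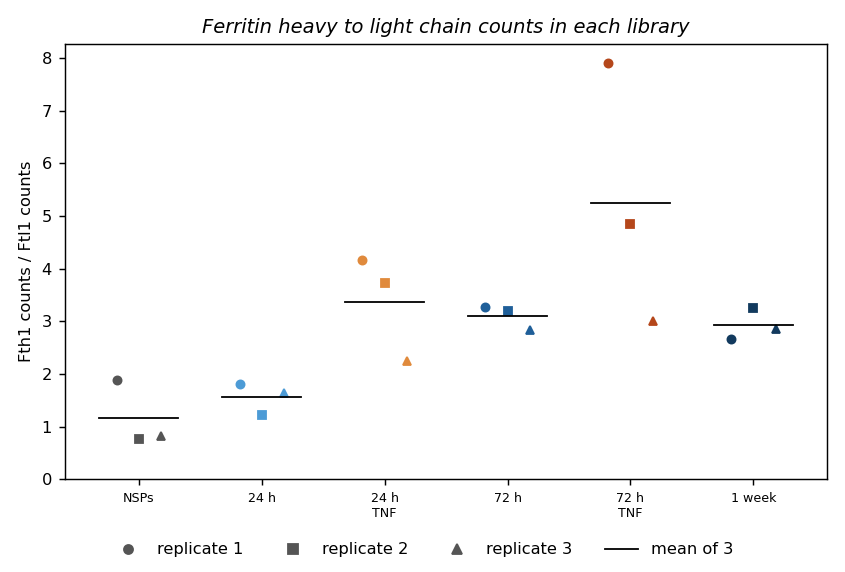
Ratio of *Fth1* to *Ftl1* counts in each of the 18 libraries on a linear axis, with symbols for the replicate and lines for the mean of 3. NSP libraries sat between 0.763 and 1.89, untreated 72 h libraries between 2.84 and 3.28, and replicate 1 of 72 h with TNF was highest at 7.91.

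*Scara5* (chromosome 14, 65666403 to 65764826, plus strand) had 1, 8 and 8 counts in the NSP libraries, or 0.0635, 0.439 and 0.455 CPM. After 1 week of serum it stood at 20.7, 23.02 and 19.8 CPM. The means of that comparison use no library of the TNF contrasts, and in it *Scara5* was 63.1-fold higher (log2 fold change 5.98 ± 0.31 SE, adjusted p = 1.91e-11, edgeR). Its SE and adjusted p rest on a spread estimated from all 18 libraries, those of the TNF contrasts included. A gene chosen for a large fall under TNF also has to be expressed in untreated serum culture. The test is therefore not independent of the choice. With so few counts in NSPs the size of the fold is loosely fixed, and it lay between 5.54 and 6.29 on the log2 scale over the alternatives tried. In the untreated libraries that the choice of the gene used, *Scara5* was at 8.24, 7.44 and 6.84 CPM at 24 h and at 35.2, 47.2 and 37.3 CPM at 72 h, so that its highest untreated level was at 72 h. From 72 h to 1 week its mean was 1.89-fold lower. In that step 1 of the other 9 genes was called, *Trf*, which fell 3.40-fold (log2 fold change −1.76 ± 0.42 SE, adjusted p = 0.0138) without overlap, against 6.63% of all genes tested (2.68% higher, 3.96% lower; groups of 26.9% did not overlap). The *Trf* call was lost without 72 h replicate 3 (adjusted p = 0.0969) and without 1 week replicate 2 or 3 (adjusted p = 0.0786 and 0.0507).

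Levels of different genes were compared per kilobase of all exons of a gene and, as an alternative added after seeing the data, per kilobase of its principal transcripts in GENCODE. *Fth1* and *Ftl1* held the first 2 places in all 6 conditions on each length. Their order in NSPs turned with the length, with 86.0 CPM per kilobase of all exons for *Fth1* and 215 for *Ftl1*, against 321 and 297 CPM per kilobase of the shortest principal transcripts. At 24 h without TNF it turned as well, with 161 for *Fth1* and 273 for *Ftl1* on all exons, against 601 and 378 on the shortest principal transcripts. *Tfrc* was the third in NSPs on each length. Its highest NSP library (115 CPM per kilobase) lay above the lowest of *Fth1* (73.7) on all exons, but on principal transcripts (145) it lay below every *Fth1* library. *Scara5* came last in NSPs on each length, at 0.0524 CPM per kilobase of all exons, with a spread that reached *Slc40a1* (0.0710). At 72 h without TNF it stood at 6.55 CPM per kilobase of all exons, level within its spread with *Slc11a2* (6.83) and *Slc39a14* (6.32). On principal transcripts it stood at 10.5 CPM per kilobase, under *Slc11a2* (14.3) and, with overlapping libraries, *Slc39a14* (13.5). With TNF at 72 h it was last on each length, at 0.287 CPM per kilobase of all exons, and its libraries overlapped those of *Trf* (0.378).

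Under TNF the described values of *Scara5* were 2.83, 1.86 and 2.42 CPM at 24 h and 1.92, 1.33 and 2.00 CPM at 72 h, below every untreated library of the same time. The mean was 3.14-fold lower than without TNF at 24 h (log2 fold change −1.65) and 22.7-fold lower at 72 h (−4.51), and the TNF libraries of 72 h still lay above the NSPs. Replicate 1 was the highest TNF library at 24 h and between the other two at 72 h. Of the 8 astrocyte markers, 3 were lower with TNF at 72 h and 0 higher (median log2 fold change −0.89), and their summed level was 3485 to 4888 CPM against 5696 to 8145 CPM without TNF. At 24 h 1 of 8 was lower and 0 higher, with overlapping sums of 4875 to 6199 CPM against 5324 to 5789 CPM. The highest of these TNF sums was that of replicate 1, and the others, at 4875 and 4941 CPM, lay below every untreated one. At 1 week, where *Scara5* was higher than in NSPs, 5 of 8 were lower and 0 higher (median −0.82), with sums of 2683 to 3247 CPM against 5128 to 5364 CPM. Of 8 choroid plexus markers, 6 averaged under 1 CPM in every condition, *Clic6* was at 0, and 2 passed the filter. Their sums were 3.49 to 4.67 CPM in NSPs, 5.54 to 6.71 CPM at 24 h, 18.5 to 29.6 CPM at 72 h and 26.5 to 29.0 CPM at 1 week. With TNF they were 5.67 to 7.06 CPM at 24 h, where 0 of the 2 were called, and 8.17 to 16.1 CPM at 72 h, where 1, the folate receptor gene *Folr1*, was lower, at 2.48, 5.40 and 7.07 CPM against 11.3, 15.4 and 19.0 CPM. At 72 h with TNF the lowest choroid plexus sum was that of replicate 1. The others, at 15.7 and 16.1 CPM, also lay below every untreated one. The part of these lists in the values of *Scara5* was not tested. These are the values for which the gene was chosen. No threshold was used, so there are no genes just inside or outside one. Among genes of 1 CPM or more, those whose log2 CPM ran most like *Scara5* over the 18 libraries were *Gm10814* (r = 0.974), *Ank* (r = 0.973), *Tango2* (r = 0.962), *Ankrd35* (r = 0.959) and *Capn1* (r = 0.957). *Ank*, which encodes a membrane protein that exports pyrophosphate, averaged 331 CPM at 72 h and 175 CPM with TNF, and *Capn1*, a calpain protease, 32.3 and 8.31 CPM. *Scara5* is also known in fibroblasts. Of the 8 fibroblast and mural cell markers, *Col1a1*, *Col1a2*, *Dcn*, *Lum* and *Pdgfrb* averaged under 1 CPM in every condition, *Lum* was at 0, and *Col3a1* reached 1 CPM only with TNF at 24 h, at 1.20, 1.72 and 1.42 CPM. The smooth muscle actin gene *Acta2* carried most of the list's summed level, which was 4.49 to 11.1 CPM in NSPs, 403 to 497 CPM at 24 h, 198 to 294 CPM at 72 h and 326 to 410 CPM at 1 week. With TNF the sums were 97.3 to 532 CPM at 24 h and 54.5 to 205 CPM at 72 h, and *Rgs5* stayed under 5 CPM. Replicate 1 had the lowest sum at each of these times, with the others at 497 and 532 CPM and at 189 and 205 CPM. Of the 3 genes tested, 2 were higher than in NSPs at each untreated time. Their part in the level of *Scara5* was not tested. *Colec12* was the only other scavenger receptor of its list to pass the filter, and it was not called under TNF at either time.

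Among the other 9 genes, the exporter and the ferritin heavy chain were called higher with TNF at 24 h and the exporter at 72 h. At 24 h these 2 of 9 stood against 3.5% of all genes tested (2.18% higher, 1.32% lower). At 72 h the 1 of 9 stood against 9.56% (4.35% higher, 5.21% lower), near the background. With 1 library left out, 0 to 1 of the 9 were called at 24 h, so no such fit kept both calls. *Tfrc*, *Trf*, *Ftl1* and *Hfe* were not called at either time, with or without the replicate 1 libraries with TNF. *Slc40a1* stood at 14.4, 9.17 and 9.49 CPM with TNF at 24 h, above all untreated libraries of that time (1.81-fold, log2 fold change 0.85 ± 0.21 SE, adjusted p = 0.0278, edgeR). At 72 h with TNF it stood at 13.2, 22.1 and 17.5 CPM, again without overlap (1.65-fold, 0.72 ± 0.20 SE, adjusted p = 0.0289). The groups of 20.8% of all genes did not overlap at 24 h, and those of 26.2% at 72 h. Within TNF-treated cells it was 1.60-fold higher at 72 h than at 24 h (0.68 ± 0.20 SE, adjusted p = 0.0316), the 1 call among the 9 genes in that comparison, against 13.3% of all genes (5.38% higher, 7.93% lower; groups of 27.3% did not overlap, whereas those of *Slc40a1* did). Without both replicate 1 libraries with TNF the 24 h difference was 0.61 (adjusted p = 0.0792), no longer called, the 72 h difference was 0.89 (adjusted p = 0.00186) and that between the TNF times 1.09 (adjusted p = 0.000556). These calls also turned on other single libraries. The 24 h call was lost without any 1 of the untreated 24 h libraries or without replicate 1 with TNF (adjusted p 0.0957 to 0.179), and the 72 h call without any 1 of the untreated 72 h libraries or without replicate 2 or 3 with TNF (0.0573 to 0.149). The difference between the TNF times was lost without replicate 2 or 3 of either (0.0802 to 0.172). Fitted on the compared groups alone, the 24 h difference (0.86, adjusted p = 0.059) and that between the TNF times (0.70, adjusted p = 0.141) were not called. With a replicate block in which 72 h replicate 3 was left unpaired, none of the 3 was called. The adjusted p was 0.0598 at 24 h, 0.103 at 72 h and 0.054 between the TNF times (0.68). Only between the TNF times may the numbers pair the libraries.

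*Fth1* was at 1352, 1036 and 1007 CPM with TNF at 24 h, above the untreated 542, 514 and 619 CPM (2.03-fold, log2 fold change 1.02 ± 0.27 SE, adjusted p = 0.0417, edgeR). Leaving out any 1 of these 6 libraries took the adjusted p to between 0.0503 and 0.162. Without replicate 1 of 24 h with TNF alone the difference was 0.85 (adjusted p = 0.162). Without both replicate 1 libraries with TNF it was 0.87 ± 0.15 SE (adjusted p = 0.00255), a similar difference with a smaller estimated spread. At 72 h the libraries with TNF held 2360, 992 and 842 CPM and overlapped the untreated ones (0.55 ± 0.27 SE, adjusted p = 0.208), and without the replicate 1 libraries the difference was −0.06 (adjusted p = 0.857). With no filter on low counts the 72 h difference over all libraries was called (0.57, adjusted p = 0.00338). *Ftl1* stood at 325, 279 and 448 CPM at 24 h with TNF (log2 fold change −0.06, adjusted p = 0.948) and at 299, 205 and 280 CPM at 72 h (−0.25, adjusted p = 0.53), and without the replicate 1 libraries its differences were −0.01 and −0.36. The *Fth1* to *Ftl1* ratio was 4.16, 3.72 and 2.25 with TNF at 24 h, above the untreated range, and 7.91, 4.85 and 3.01 at 72 h, which overlapped it. *Fth1* ran most like *Clip4* (r = 0.955), *Cpeb1* (r = 0.944) and *Noct* (r = 0.928).

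**Figure D3:**
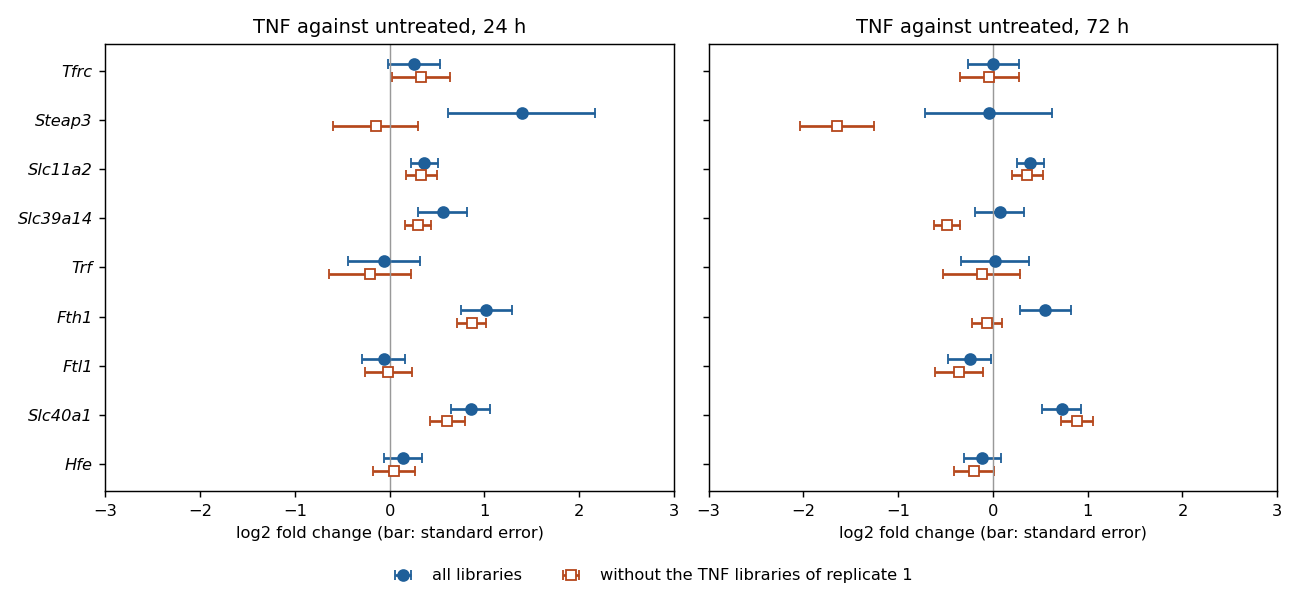
Log2 fold change of TNF-treated against untreated cells at 24 h and 72 h for 9 genes, with bars for the standard error, from all libraries (filled) and without the replicate 1 libraries with TNF (open). At 72 h *Slc40a1* stayed positive in both (0.72 and 0.89), while *Steap3* went from −0.05 to −1.65 and *Slc39a14* from 0.07 to −0.49.

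The values of 2 uptake genes depended on replicate 1 with TNF. *Steap3* was at 8.0, 0.671 and 1.65 CPM with TNF at 24 h and at 11.2, 1.68 and 1.502 CPM at 72 h, and *Slc39a14* at 86.4, 51.5 and 57.8 CPM and at 115, 46.0 and 49.6 CPM. In both genes and at both times replicate 1 was the highest library. With all libraries the log2 fold changes of *Steap3* were 1.39 at 24 h (adjusted p = 0.47) and −0.05 at 72 h (adjusted p = 0.977), and those of *Slc39a14* 0.56 (adjusted p = 0.342) and 0.07 (adjusted p = 0.894). With no filter on low counts both 24 h differences were called (adjusted p = 0.0016 for *Steap3* and 0.0212 for *Slc39a14*). Without the 2 libraries the 72 h values were −1.65 ± 0.39 SE for *Steap3* (adjusted p = 0.0099) and −0.49 ± 0.14 SE for *Slc39a14* (adjusted p = 0.0309). These are given as a description, since the libraries left out were the highest for both genes and a lower mean follows from leaving them out. Without replicate 1 of 72 h with TNF alone, neither gene was called (−1.64, adjusted p = 0.164, and −0.48, adjusted p = 0.131). *Slc11a2* was at 60.7, 53.5 and 61.6 CPM with TNF at 24 h and at 59.0, 49.1 and 63.1 CPM at 72 h, above all untreated libraries of the same time, but it was not called (0.37, adjusted p = 0.228, and 0.39, adjusted p = 0.0949). Without the replicate 1 libraries its differences were 0.34 and 0.36, not called, and with a floor of 10 counts in every library the 72 h difference was called (0.44, adjusted p = 0.0438). *Tfrc* showed log2 fold changes of 0.25 (adjusted p = 0.771) and 0.00 (adjusted p = 0.994), and of 0.33 and −0.04 without those libraries.

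The TNF effect at 72 h minus that at 24 h was tested as an interaction. None of the 9 genes was called (0 by edgeR, 0 at an unadjusted p under 0.05 and 0 by DESeq2), against 0.458% of all genes tested (0.135% higher, 0.324% lower). Without replicate 1 of 72 h with TNF, 1 was called, lower.

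The members' partners came from 8 lists of iron and haem genes written from textbook roles, again with earlier results known, with 65 genes found in the table and 54 tested. Against NSPs, 15 rose and 15 fell at 24 h, 20 rose and 15 fell at 72 h, and 19 rose and 13 fell at 1 week. These are 55.6%, 64.8% and 59.3% of the genes tested, near the 52.7%, 55.3% and 58.6% of all genes at 24 h and 1 week and above it at 72 h. *Cp*, encoding ceruloplasmin, the ferroxidase that works with ferroportin, was at 64.8, 103 and 109 CPM in NSPs and at 795, 819 and 955 CPM at 72 h (9.28-fold, log2 fold change 3.21 ± 0.19 SE, adjusted p = 1.11e-10, edgeR). *Bmp6*, the BMP ligand that induces hepcidin in the liver, rose at each time, to 52.6, 48.0 and 47.5 CPM at 1 week from 0.317, 0.604 and 0.853 CPM in NSPs (log2 fold change 6.35 ± 0.39 SE, adjusted p = 1.79e-10). The hepcidin genes themselves did not pass the filter. *Hmox1*, which breaks down haem and frees its iron, was 8.87-fold higher at 1 week than in NSPs (3.15 ± 0.28 SE, adjusted p = 2.08e-08). *Blvra*, a biliverdin reductase, fell at 1 week to 5.03, 4.71 and 4.58 CPM from 13.3, 9.56 and 9.79 CPM (−1.18 ± 0.20 SE, adjusted p = 6.12e-05).

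In the list for haem uptake, export and breakdown, 5 of 11 genes were called at 24 h (3 higher, 2 lower), or 45.5% against 52.7% of all genes, and 10 of 11 genes were called at 72 h and at 1 week (7 higher and 3 lower each time), or 90.9% against 55.3% and 58.6% of all genes. Of 14 genes for mitochondrial iron, haem and iron-sulfur assembly, 9 fell and 1 rose at 24 h, 8 fell and 2 rose at 72 h, and 7 fell and 2 rose at 1 week, with median log2 fold changes of −0.51, −0.54 and −0.36 against 0.06, 0.05 and 0.06 over all genes. The called shares were 71.4%, 71.4% and 64.3% against 52.7%, 55.3% and 58.6% of all genes, and 25.5%, 27.2% and 29.1% of all genes were called lower. None of the 5 ferritin partner genes tested, among them the ferritin receptor of autophagy *Ncoa4*, was called in any of the 9 comparisons.

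TNF changed 6 of the 54 partner genes at 24 h (5 higher, 1 lower; 11.1%) and 9 at 72 h (4 higher, 5 lower; 16.7%), where the share among all genes was 3.5% and 9.56%. Without the replicate 1 libraries with TNF 6 and 8 were called. *Cp* rose at both times, to 1894, 1612 and 1390 CPM at 24 h from 321, 315 and 318 CPM (5.13-fold, log2 fold change 2.36 ± 0.18 SE, adjusted p = 2.47e-07, edgeR), and to 2090, 2798 and 2335 CPM at 72 h (2.81-fold, 1.49 ± 0.18 SE, adjusted p = 2.22e-05). Without the replicate 1 libraries its differences were 2.23 and 1.58, both called. *Steap4*, a metalloreductase related to STEAP3, was at 0.151, 0.224 and 1.47 CPM at 24 h and at 78.5, 15.2 and 17.04 CPM with TNF (log2 fold change 6.01 ± 0.76 SE, adjusted p = 0.000194). Without the replicate 1 libraries that difference was 4.81 (adjusted p = 2.46e-05). At 72 h *Steap4* rose to 18.7, 36.4 and 31.5 CPM from 1.74, 3.01 and 3.03 CPM (3.46 ± 0.62 SE, adjusted p = 0.00146), and by 3.68 without the replicate 1 libraries. *Lcn2*, the siderophore-binding lipocalin 2, went from 0, 0 and 4 counts at 24 h to 235, 84 and 131 counts with TNF, and was called with and without replicate 1. *B2m*, the light chain that HFE needs to reach the cell surface, was 2.09-fold higher at 24 h and 1.85-fold higher at 72 h, and without the replicate 1 libraries its log2 fold changes were 0.99 and 0.96, both called. *App*, the amyloid precursor protein gene, was the 1 partner that fell at 24 h, to 299, 330 and 359 CPM from 457, 513 and 535 CPM (−0.61 ± 0.12 SE, adjusted p = 0.00603, and −0.55 without replicate 1).

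The partner genes that fell at 72 h with TNF included *Flvcr1*, *Slc46a1* and *Heph*, while the ferroxidase gene *Cp* rose. *Flvcr1*, a haem exporter, was at 194, 255 and 218 CPM without TNF and at 111, 70.7 and 60.8 CPM with it (2.75-fold lower, log2 fold change −1.46 ± 0.27 SE, adjusted p = 0.00166, edgeR). *Slc46a1*, a transporter of folate and haem, fell by 0.76 on the log2 scale (adjusted p = 0.0197). *Heph*, a membrane ferroxidase related to ceruloplasmin, was at 32.4, 49.8 and 49.0 CPM without TNF and at 26.4, 30.2 and 28.7 CPM with it (−0.62 ± 0.19 SE, adjusted p = 0.0462). Without the replicate 1 libraries *Flvcr1* stayed called (−1.76, adjusted p = 2.65e-06), whereas *Heph* (−0.58, adjusted p = 0.0688) and *Slc46a1* (−0.60, adjusted p = 0.0612) did not. In that fit *App* (−0.62, adjusted p = 0.00314) and *Neo1*, of the hepcidin list (−0.51, adjusted p = 0.0107), were also called lower. *Hmox1* rose with TNF at 24 h (2.23-fold, log2 fold change 1.16 ± 0.26 SE, adjusted p = 0.0158) and was at 208, 86.1 and 109 CPM at 72 h against 125, 147 and 179 CPM without TNF (−0.16, adjusted p = 0.732). Without the replicate 1 libraries its 24 h value was 0.90 (adjusted p = 0.00585) and its 72 h value −0.63 (adjusted p = 0.0336).

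**Figure D4:**
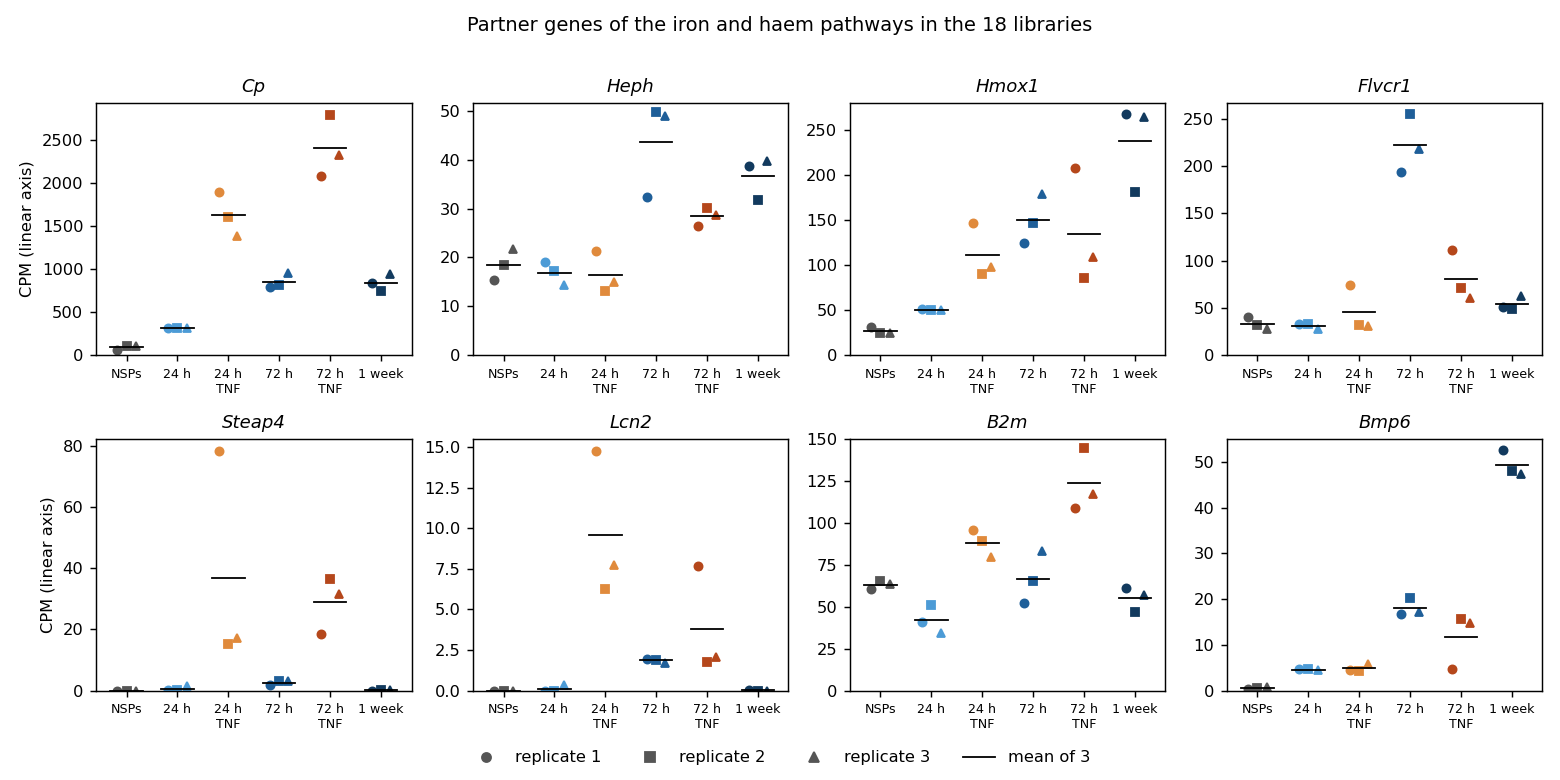
Level of 8 partner genes in each of the 18 libraries, in CPM on linear axes that start at 0, with symbols for the replicate and lines for the mean of 3. *Cp* with TNF lay between 1390 and 2798 CPM, above all untreated libraries, and *Flvcr1* peaked at 194 to 255 CPM in untreated cells at 72 h.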

How the data were processed

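Total RNA of 18 libraries was sequenced after ribosomal depletion with a strand-specific kit. The deposited table holds raw counts of reads per gene, made by the authors with Trim Galore, STAR and featureCounts on mm10, per the labels, which give no versions or strand setting. Gene identifiers were matched to GENCODE M21 (GRCm38, the assembly mm10 stands for) for 54809 of 54838 genes. Counts were tested with edgeR 4.0.16 (quasi-likelihood F test, TMM, filterByExpr by condition) in 1 fit of all 18 libraries with 1 mean per condition, and p-values were adjusted by Benjamini-Hochberg over 20067 genes at 0.05. CPM are counts over TMM-scaled totals of the tested genes, and CPM per kilobase divide them by the length of all exons or, as an alternative added after seeing the data, of the shortest or longest principal transcript (APPRIS tag). SE is the log2 fold change over the root of its F.

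The members and gene lists were chosen with earlier results of these data known. Per comparison and direction, up to 3 called partner genes could be named, those of largest change with a mean of at least 1 CPM. *Ncoa4*, *B2m* under TNF at 24 h, *App* and *Neo1* under TNF at 72 h and *Hmox1* under TNF were named outside this rule after their values were seen. The genes most like a member were found by Pearson's r of log2 CPM. The study's methods speak of independent biological experiments for its data as a whole, but neither they nor the labels tie these libraries to separate embryos, so p-values measure the spread between these libraries, which may be technical in part. Replicates of a condition differed by more than counting error in every pair (chi-square over its degrees of freedom 4.08 to 62.7). The labels number replicates alike across conditions. Numbers were taken to pair libraries where the correlation of their deviations was over 0.1 in all 3 pairs, which held between 24 h and 72 h with TNF (r 0.255 to 0.291) and in no other comparison (72 h and NSPs came closest, with 0.219, 0.150 and 0.0525). Deviations were taken from the mean of 3 libraries, so 1 odd library of like number in both groups can make all 3 correlations positive. Replicate 1 stood apart at both TNF times, so the rule cannot decide whether the numbers pair the libraries there. Between the TNF times the block changed no call of a member, but with 72 h replicate 3 unpaired the *Slc40a1* call was lost. In the table, 72 h replicate 3 is numbered 4. On simulated counts for 24 h with TNF against 24 h (19438 genes tested) edgeR found 45 of 97 genes changed 2-fold and 82 of 98 changed 4-fold, with 0 false calls. DESeq2 on the same counts found 58 and 83 of them, with 15 false calls (9.62% of its calls). DESeq2 1.42.0, another normalization, other filters, the compared groups alone, a replicate block and leaving out each library were alternatives. No column of the table was left unused.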

Additional observations from a re-analysis of the deposited data

Results flagged for a closer look

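The TNF effect differed between 24 h and 72 h in 2 partner genes, by the test of the interaction term itself in edgeR. *Lcn2* changed by −5.52 on the log2 scale (adjusted p = 0.0275), from a TNF effect of 6.57 at 24 h to 1.05 at 72 h, and by −6.09 (adjusted p = 0.00072) without the replicate 1 libraries with TNF. The 72 h effect rested on replicate 1, at 7.66 CPM against 1.74 and 2.06 CPM in the other two, and without the replicate 1 libraries was 0.03 (adjusted p = 0.979). Its untreated counts were 0, 0 and 4 at 24 h and 26, 31 and 31 at 72 h. *Flvcr1* changed by −2.02 (adjusted p = 0.0255), from 0.56 at 24 h to −1.46 at 72 h, and by −1.78 (adjusted p = 0.000962) without those libraries. Its 24 h effect rested on replicate 1, at 74.5 CPM against 31.99 and 31.2 CPM, and was 0.02 (adjusted p = 0.985) without the replicate 1 libraries. Fitted on the compared groups alone, 0 partner genes were called for the interaction, and leaving out 1 library gave 0 to 3. *Hmox1* was not called with all libraries (−1.32, adjusted p = 0.143) and was called without the replicate 1 libraries with TNF (−1.53, adjusted p = 0.00565).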

How the results depend on the processing

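The depth limits *Scara5* in NSPs, *Trf* and *Steap3*, which rest on few counts, and 3 libraries per condition limit the TNF comparisons. *Scara5* at 1 week against NSPs was called under every alternative that could be fitted (not under a floor of 10 counts per library, which drops the gene). Counts of called members, which were 2 for 72 h against 24 h, 1 for 1 week against 72 h, 2 for TNF at 24 h, 1 for TNF at 72 h and 1 between the TNF times, became 4, 3, 4, 2 and 2 with no filter on low counts. A floor of 10 counts in each library left 1 for 72 h against 24 h, 0 for 1 week against 72 h, 1 for TNF at 24 h and 2 for TNF at 72 h. Fitted on the groups compared alone they were 4, 2 and 1 for the first 3. The fit with a replicate block changed none of these counts by over 1.5 times and called *Steap3* at 1 week against NSPs (2.06, adjusted p = 0.031). With 72 h replicate 3 unpaired the block left 0, 0, 1, 0 and 0 calls, and gave *Slc40a1* 0.68 between the TNF times (adjusted p = 0.054). By the rule above these numbers paired libraries only between the TNF times, where pairing remained undecided. Without both replicate 1 libraries with TNF, a choice made after seeing the data, 1 member was called at 24 h and 3 at 72 h. Leaving out 1 library gave 1 to 2, 0 to 1, 0 to 1, 0 to 1 and 0 to 1 calls, and 0 to 1 for the interaction (0 in all libraries).

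Partner genes called at 1 week against 72 h (6) were 3 under that floor and 4 to 6 without 1 library. Between the TNF times (10) they were 0 on the groups compared alone, 17 without both replicate 1 libraries and 1 to 14 without 1 library. For TNF at 72 h (9) they were 4 to 10 without 1 library. For the interaction (2) they were 5 with no filter, 1 under the floor of 10, 0 on the groups alone, 1 with the block and 72 h replicate 3 unpaired, and 0 to 3 without 1 library. 

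Directions that turned were all of differences that were not called with all libraries. At 72 h with TNF, *Slc39a14* (0.07) was −0.015 with the replicate block, −0.0457 with 72 h replicate 3 unpaired, −0.49 without both replicate 1 libraries and −0.48 to 0.30 without 1 library. *Tfrc* (0.00) was −0.00107 with the block, −0.0393 without both and −0.0801 to 0.15 without 1. *Fth1* (0.55) was −0.0638 without both and −0.0523 to 0.81 without 1, and *Steap3* (−0.05) was −1.64 to 0.37 without 1. At 24 h with TNF, *Steap3* (1.39) was −0.15 without both and −0.16 to 1.86 without 1, and *Ftl1* (−0.06) was −0.28 to 0.0707 without 1. *Ftl1* at 72 h against NSPs (0.11) was −0.12 to 0.30 without 1. The cause was not tested.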
